A study of Mus musculus with 4 samples.

Results

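The peaks described here are those of a FLAG chromatin immunoprecipitation titled N31, EGFP and OK, called EGFP_OK, set against the peaks of histone H3 dimethylated at lysine 4 (H3K4me2) from a library also titled N31. All peaks of either library on chromosomes 1 to 19 were taken. These were 27730 of 28376 EGFP_OK peaks and 48520 of 49568 H3K4me2 peaks, out of 125574 peaks in the 4 lists of the series. The cells were neural progenitor-like, grown from 129/SvJ embryonic stem cells in medium with EGF and FGF-2 and used at passages 15 to 18. The EGFP_OK library was precipitated with the M2 antibody against FLAG, a short peptide tag fused to a protein of interest, and its title does not say which protein carried the tag. The title of the H3K4me2 library also names Oct4, EGFP and 0 hr. The remaining FLAG libraries, titled NS with Pax6 and NS with Etv6, served for comparison. With 1 library per group and no control library, there was no replicate error and no test between libraries, and intervals cover counting error only. The sources used here do not say whether N31 and NS are different cells.

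H3K4me2 is deposited by methyltransferases of the MLL and SET1 family and marks promoters and enhancers that are active or poised. A transcription factor bound at such an element lies within or next to marked nucleosomes, whereas a factor bound in unmarked chromatin can lie far from them. The distance from a factor's summit, the position of highest tag density, to the nearest edge of a marked region therefore describes the chromatin around its sites. Marked regions in a progenitor cell cover a small part of the genome, here 93.7 Mb of chromosomes 1 to 19.

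The EGFP_OK library kept 21498324 of 35255051 tags after duplicates were removed and the H3K4me2 library kept 24550365 of 29371583. The Pax6 library kept 5288154 tags, the fewest, and the Etv6 library 24071748. Peaks held 8.00% of the kept EGFP_OK tags and 34% of the kept H3K4me2 tags. The median EGFP_OK peak was 1146 bp wide and held 48 tags, and the median H3K4me2 peak was 1638 bp wide and held 122.

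EGFP_OK summits were concentrated inside H3K4me2 peaks and were scarce far from them, yet most lay outside the mark. Inside an H3K4me2 peak lay 7561 summits, or 27.3% (95% exact binomial interval 26.7 to 27.8). To describe what the layout of the lists alone would give, the summits were moved around each chromosome by a common distance of at least 1 Mb, 1000 times. These circular shifts placed a mean of 4.00% inside, with a range of 3.57 to 4.44%, so the observed share was 6.82 times the mean. At 0 to 1 kb from an edge lay 1124 summits, or 4.05% (3.82 to 4.29), against 3.77% under shifts. At 1 to 5 kb lay 3302 summits, or 11.9% (11.5 to 12.3), against 12.4%. At 5 to 20 kb lay 6511 summits, or 23.5% (23 to 24.0), against 23.6%. In each of these 3 bins the observed share lay within the range of the shifts. At 20 to 100 kb lay 7036 summits, or 25.4% (24.9 to 25.9), against 28.8% under shifts and at least 27.7%. Over 100 kb away lay 2196 summits, or 7.92% (7.60 to 8.24), which is 0.289 times the shifted mean of 27.4%. The shifts did not leave out stretches where no peak could be called, so part of that 27.4% may lie there.

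**Figure D1:**
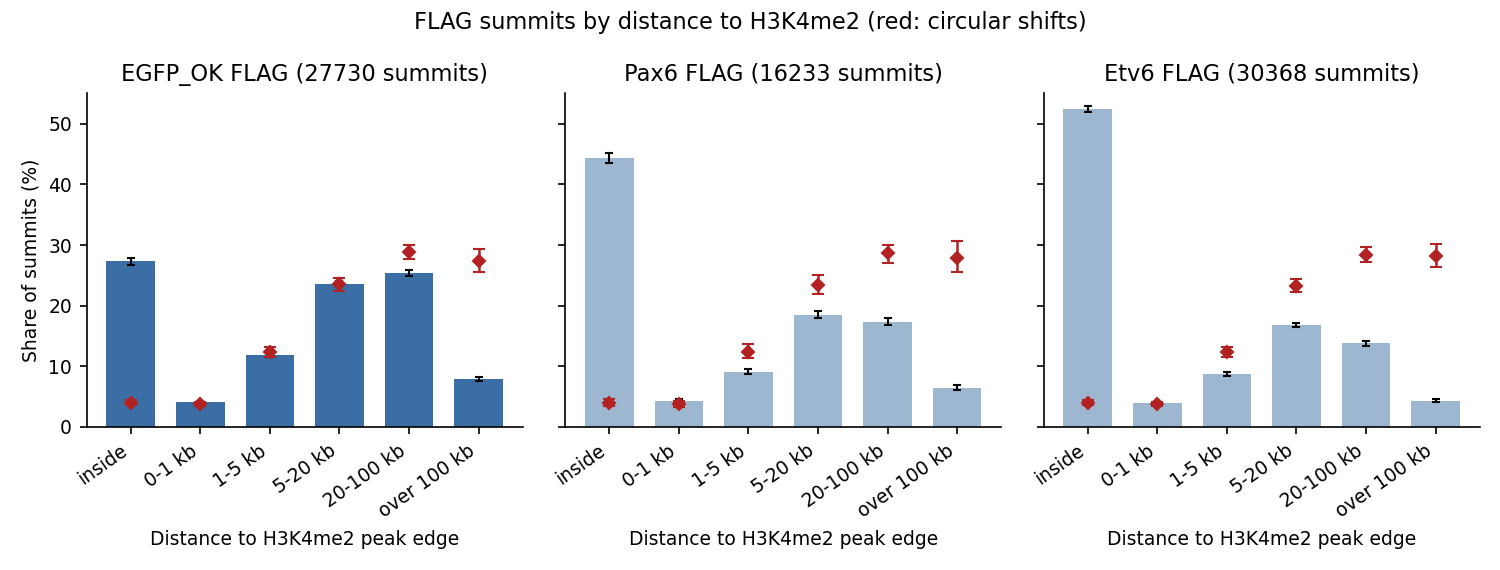
Share of summits (vertical axis, %) in each bin of distance to the nearest H3K4me2 peak edge (horizontal axis) for the EGFP_OK, Pax6 and Etv6 FLAG libraries. Bars carry exact 95% binomial intervals, and red diamonds with bars give the mean, lowest and highest share over 1000 circular shifts. In EGFP_OK the inside bar stands at 27.3% against a diamond at 4.00%, and the bar over 100 kb at 7.92% against 27.4%.

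The bins next to the mark depended on the reference and the denominator. Among the 20169 summits outside H3K4me2, 5.57% (5.26 to 5.90) were within 1 kb of an edge, against 3.92% of the shifted summits that fell outside and at most 4.35%. On this scale the bins of 1 to 5 kb and 5 to 20 kb were at 1.26 and 1.32 times the shifts, the bin of 20 to 100 kb at 1.16 times and the bin over 100 kb at 0.381 times. Shifts of only 100 kb to 1 Mb, which keep the regional density of both lists, gave 4.24% at 0 to 1 kb, so that the observed 4.05% was then 0.956 times the mean. The same local shifts gave 4.43% inside and 18.4% over 100 kb, or ratios of 6.15 and 0.431. The excess inside and the deficit over 100 kb thus held under both kinds of shift, while the ratios of 1 to 20 kb fell to between 0.846 and 0.874 of the local shifts.

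On a finer scale, counted over all 27730 summits, the excess ended close to the edge. This end point depends on the denominator. Among outside summits alone, the bins of 1 to 5 kb and 5 to 20 kb stayed at 1.26 and 1.32 times the circular shifts. Counted in steps of 100 bp, 281 summits lay in the last 100 bp inside an edge, against a shifted mean of 114. In the first 100 bp outside lay 185 against 110.4, and in the next 100 bp 152 against 107 and at most 144. From 200 to 300 bp there were 136 summits, within the shifted range of 74 to 138, and from 300 to 400 bp 107 against 104. Deeper inside the counts were higher, with 604 summits between 700 and 800 bp from the nearest edge against a shifted mean of 65.2. The side of the nearest edge was balanced, since 47.5% (44.6 to 50.5) of the summits within 1 kb had it on the lower coordinate and 50.8% (49.1 to 52.6) of those at 1 to 5 kb.

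**Figure D2:**
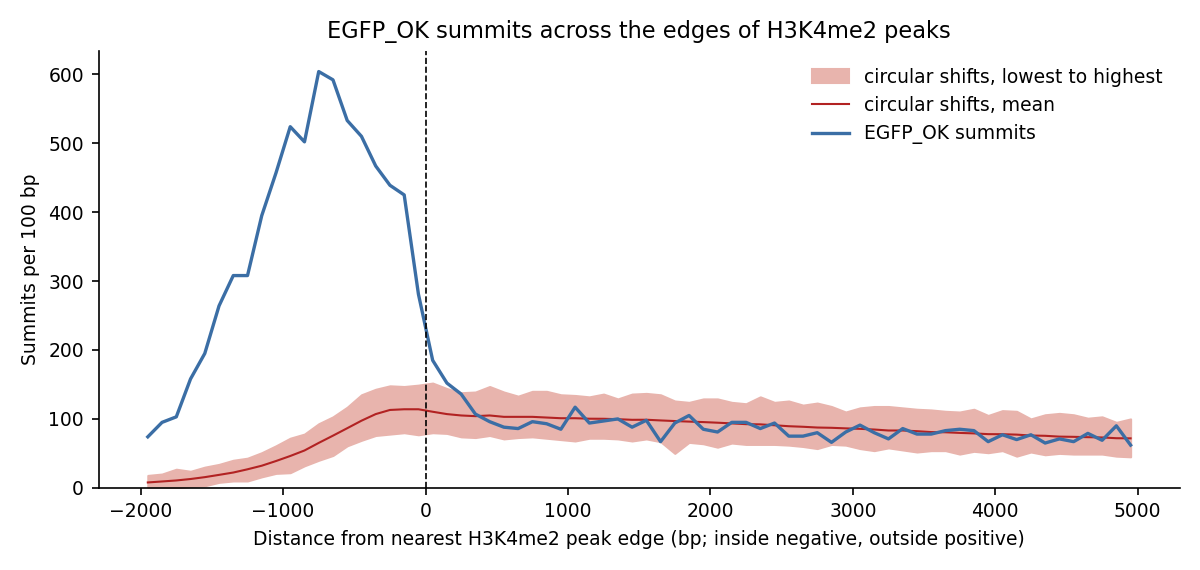
Number of EGFP_OK summits per 100 bp (vertical axis) against distance from the nearest H3K4me2 peak edge in bp (horizontal axis, inside negative, outside positive). The blue line gives the observed count, the red line and band the mean and range of 1000 circular shifts. The observed count peaks at 604 between 700 and 800 bp inside and joins the band, at 136 summits, between 200 and 300 bp outside. The shifted counts are of all 27730 summits, so the place where the lines meet depends on that denominator.

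Of the summits within 1 kb of an edge, 64 had an H3K4me2 edge within 1 kb on both sides, which places them in a gap between neighbouring marked regions. This was 0.231% (0.178 to 0.295) of all EGFP_OK summits, against a shifted mean of 0.0730% and at most 0.119%. The median gap was 361 bp and the median EGFP_OK peak there 1118 bp wide, so an overlap of that peak with H3K4me2 is largely given by the layout. It was found for every one of the 64, and for 65.8% of the 1060 summits with a single edge within 1 kb. An Etv6 peak overlapped 60.9% (47.9 to 72.9) of the 64, against 19.9% (17.5 to 22.4) of the 1060. These groups were not matched for distance to the edge. Among all summits outside, the Etv6 share was 35.6% within 250 bp of an edge and 14.7% from 250 to 1000 bp. With edges within 5 kb on both sides the share was 1.59%, within the shifted range of 1.51 to 2.03%.

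Width, tags and enrichment differed modestly between the bins. Inside H3K4me2 the median EGFP_OK peak was 1205 bp wide, with quartiles of 1015 and 1509 bp. The median was 1170 bp at 0 to 1 kb, 1164 bp at 1 to 5 kb, 1135 bp at 5 to 20 kb, 1119 bp at 20 to 100 kb and 1052 bp over 100 kb. A width over 2 kb was found for 9.55% of the inside peaks, 7.30% of those at 0 to 1 kb and 2.14% of those over 100 kb. The median number of tags was 50 inside, 50.5 at 0 to 1 kb, 51 at 1 to 5 kb, 48 at 5 to 20 kb, 46 at 20 to 100 kb and 40 over 100 kb. Tags were thus nearly level up to 20 kb and lowest in the farthest bin, where the quartiles were 31 and 57. Per kb of peak the medians ran from 38.3 tags over 100 kb to 43.3 at 1 to 5 kb, and the inside bin was at 39.9.

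The authors' fold enrichment, the summit over the local background of the same library, went the other way. Its median was 6.32 inside H3K4me2, 7.01 at 0 to 1 kb, 7.06 at 1 to 5 kb, 7.24 at 5 to 20 kb, 7.34 at 20 to 100 kb and 7.30 over 100 kb. A fold of at least 10 was reached by 11.3% (10.6 to 12) of the inside peaks and 19.3% (18.4 to 20.3) of those at 20 to 100 kb. The lower fold inside was also seen among peaks of similar tag number. In the highest 20% by tags the median fold was 7.96 inside and 10.3 over 100 kb, with 117 and 112 tags at the median. In the lowest 20% by tags it was 5.70 inside and 6.32 over 100 kb, with 28 tags in both. Widths in the lowest tag class were 856 bp inside and 830.0 to 848 bp in the outside bins, and in the highest class 1852 bp and 1566 to 1722 bp.

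**Figure D3:**
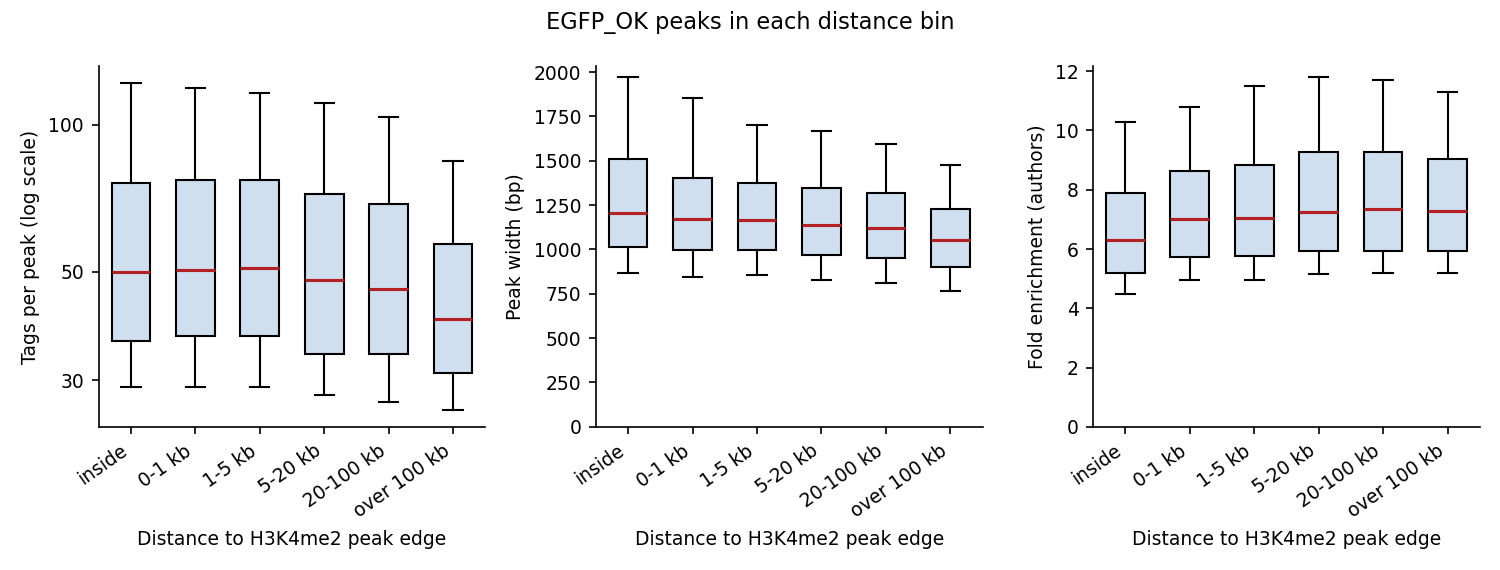
Tags per peak (log scale), peak width (bp) and the authors' fold enrichment of EGFP_OK peaks (vertical axes) in each bin of distance to H3K4me2 (horizontal axes). Boxes give the quartiles with the median in red, and whiskers the 10th and 90th percentiles. Median tags go from 50 inside to 40 over 100 kb and median width from 1205 to 1052 bp, while the median fold goes from 6.32 to 7.30.

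Read by peak strength, the measures disagreed. In the highest 20% of EGFP_OK peaks by tags 30.1% (28.9 to 31.4) were inside H3K4me2 and 4.31% (3.79 to 4.88) over 100 kb away, and in the lowest 20% the shares were 23% (21.9 to 24.1) and 12.2% (11.3 to 13.1). By fold enrichment the order was turned, with 18.7% (17.7 to 19.7) inside among the 20% of highest fold and 42.0% (40.7 to 43.3) among those of lowest. By score, the authors' p-value on a −log10 scale times 10, they were 23.6% and 28.9%. Beyond the edge, distance was only weakly ranked with strength over 20169 peaks of 1 library, with a Spearman's rho of -0.12 for tags, -0.11 for width and 0.044 for fold.

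Values on either side of the H3K4me2 edge were close. The 919 summits inside and within 250 bp of the edge had a median of 48 tags and 6.69-fold, and the 405 summits outside and within 250 bp had 47 tags and 6.95-fold. At the 5 kb limit, the 367 summits from 4.5 to 5 kb had a median of 52 tags and the 341 from 5 to 5.5 kb 48. At the 20 kb limit, the 278 summits from 19 to 20 kb had a median of 46 tags and the 266 from 20 to 21 kb 43. At the 100 kb limit, the 337 from 90 to 100 kb had 42 and the 265 from 100 to 110 kb 44. No large step in median tags stood at the limits given here.

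Inside the mark, EGFP_OK summits were nearer the middle of the H3K4me2 peak than an even spread would place them. Measured from the centre to the edge of the H3K4me2 peak in 5 equal parts, each of which would hold 20% if even, the central part held 35.9% (34.9 to 37.0) and the outermost 6.67% (6.11 to 7.25). This held for H3K4me2 peaks of every width class. The central share was 28.5% (24.8 to 32.5) in peaks up to 1 kb, 36.7% in peaks of 1 to 2 kb, 40.2% in peaks of 2 to 3 kb and 33.0% (31.1 to 34.9) in peaks over 3 kb. Summits in H3K4me2 peaks up to 1 kb wide had a median fold of 8.00, against 5.85 in those over 3 kb.

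Wide H3K4me2 peaks held an EGFP_OK summit more often, but hardly more per base. A summit was inside 5.83% (5.37 to 6.33) of the 9445 H3K4me2 peaks up to 1 kb, 10.9% of those of 1 to 2 kb, 20.9% of those of 2 to 3 kb and 34% (32.9 to 35.1) of the 7097 over 3 kb. Per Mb of marked sequence, these classes held 75.6, 74.2, 86.0 and 84.4 summits. Ranked by H3K4me2 score, density went from 65.1 summits per Mb in the lowest 20% to 99.0 in the highest. Nearly all occupied H3K4me2 peaks held a single summit, since 7447 held 1 and 57 held 2.

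Seen from the mark, 7504 of 48520 H3K4me2 peaks, or 15.5% (15.1 to 15.8), held an EGFP_OK summit, against 2.27% under shifts. Only 8.28% (8.04 to 8.53) lay over 100 kb from any EGFP_OK summit, against 28.3% under shifts. H3K4me2 peaks with a summit had a median width of 2368 bp and 89.0 tags per kb. Those with the nearest summit over 100 kb away had 1421 bp and 65.2 tags per kb. The unmarked EGFP_OK sites also neighboured smaller H3K4me2 peaks. The nearest H3K4me2 peak had a median of 91.5 tags for summits at 0 to 1 kb, 109 at 1 to 5 kb and 96.0 at 5 to 20 kb. It had 73 for those at 20 to 100 kb and 59 for those over 100 kb. These medians were not set against shifted summits. Within 500 kb of the summit there was a median of 32 H3K4me2 peaks for inside summits, 16 for those at 20 to 100 kb and 6 for those over 100 kb.

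The other FLAG lists were placed on the same H3K4me2 peaks to show where EGFP_OK differed. Inside the mark lay 44.3% (43.5 to 45.1) of 16233 Pax6 summits and 52.4% (51.9 to 53.0) of 30368 Etv6 summits, against the 27.3% of EGFP_OK. EGFP_OK had more of its summits at 20 to 100 kb, 25.4% against 17.3% (16.8 to 17.9) for Pax6 and 13.8% (13.4 to 14.2) for Etv6. Over 100 kb the shares were 7.92%, 6.48% (6.11 to 6.87) and 4.28% (4.05 to 4.51). These differences exceeded counting error, but 1 library each gives no replicate check, and the title N31 or NS cannot be told apart from the tagged protein. Among outside summits alone the lists were closer, with 10.9% of EGFP_OK, 11.6% of Pax6 and 8.99% of Etv6 over 100 kb away. Of the outside summits 5.57%, 7.69% and 8.29% were within 1 kb of an edge. With the 16233 highest-scoring peaks of each list, which for Pax6 is the whole list, the inside shares were 26.1%, 44.3% and 57.5%. Ranked by fold instead, they were 21.4%, 44.3% and 52.1%. This made the lists equal in length but not in strength, since the median tags by score were 64, 19 and 75. The median fold inside and over 100 kb was 10.3 and 11.6 for Pax6 and 6.26 and 6.78 for Etv6, against 6.32 and 7.30 for EGFP_OK.

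How often an EGFP_OK peak was shared with Pax6, a paired-box and homeobox factor of eye and forebrain, or with Etv6, a factor of the ETS family, followed the distance to H3K4me2. An Etv6 peak overlapped 57.1% (56 to 58.2) of EGFP_OK peaks with the summit inside the mark and 22.2% (19.8 to 24.8) of those at 0 to 1 kb. The share was 8.24% (7.32 to 9.23) at 1 to 5 kb, 8.02% at 5 to 20 kb, 5.86% at 20 to 100 kb and 4.37% (3.56 to 5.31) over 100 kb. For Pax6 it was 28.9% (27.9 to 29.9) inside, 13.5% at 0 to 1 kb, 5.36% at 1 to 5 kb and 4.19% (3.39 to 5.11) over 100 kb. Close to the edge, 46.2% of the summits within 250 bp inside and 35.6% of those within 250 bp outside had an Etv6 peak, against 14.7% of those from 250 to 1000 bp outside. It was present in every class of tag number. In the lowest 20% by tags the Etv6 share was 51.5% (48.7 to 54.2) inside and 3.93% (3.16 to 4.82) over 20 kb away, and in the highest 20% 61.5% (59.1 to 63.8) and 8.83% (7.45 to 10.4). The 21289 EGFP_OK peaks with neither partner had 40.3% (39.7 to 41.0) of their summits over 20 kb from the mark, against 9.70% (8.62 to 10.9) of the 2710 with both. These overlaps were not set against the density of the other lists, which had 52.4% of Etv6 and 44.3% of Pax6 summits inside the mark. The part of that density in the fall of sharing with distance was not tested.

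**Figure D4:**
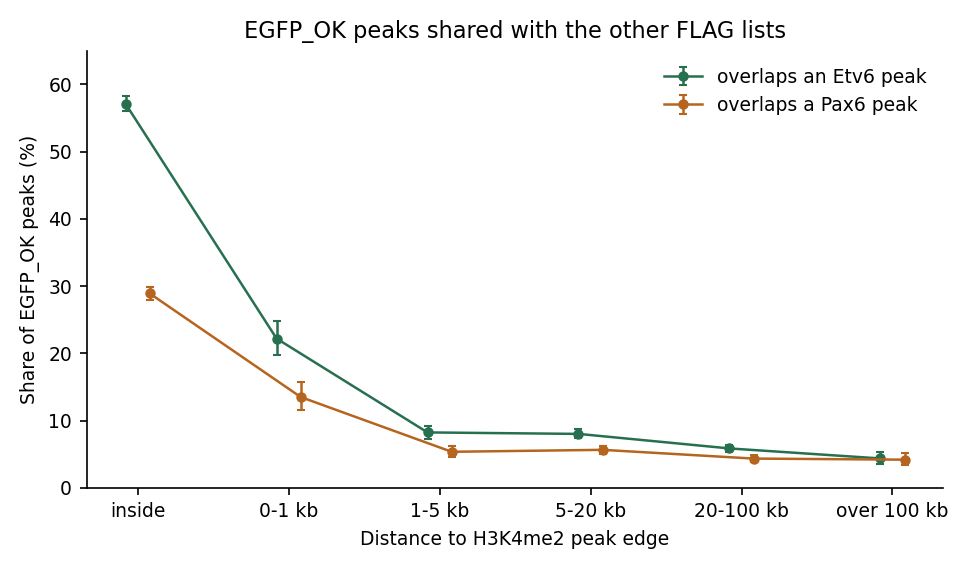
Share of EGFP_OK peaks (vertical axis, %) that overlap an Etv6 peak (green) or a Pax6 peak (brown) by at least 1 bp, in each bin of distance to H3K4me2 (horizontal axis), with exact 95% binomial intervals. The Etv6 share goes from 57.1% inside to 4.37% over 100 kb and the Pax6 share from 28.9% to 4.19%.

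Far from the mark, EGFP_OK summits were spaced more widely. Another EGFP_OK summit lay within 20 kb of 49.3% (48.2 to 50.5) of the inside summits and of 58.4% (56.7 to 60.0) of those at 1 to 5 kb, but of 32.7% (30.7 to 34.7) of those over 100 kb. No other summit lay within 50 kb of 40.2% of the latter, against 14.4% at 1 to 5 kb. Some far sites shared a window of 100 kb all the same. Of the 9232 summits over 20 kb away, 2417, or 26.2%, fell in 697 windows of 100 kb with 3 or more such summits, and 43.1% were the only such summit in their window. These counts were not made on shifted summits, so they do not show whether far sites were grouped beyond their density. The fullest windows held 8 each, on chromosome 15 from 32400001 to 32500000 and on chromosome 16 from 43100001 to 43200000. In the former, distances to the mark ran from 36.4 to 112 kb, tags from 51 to 186 and folds from 4.92 to 10.82, and 1 of the 8 overlapped a Pax6 peak. In the latter, tags ran from 31 to 100 and folds from 3.85 to 8.16, and none overlapped a Pax6 or Etv6 peak. Neither window held an H3K4me2 peak, which is largely set by choosing windows by their summits over 20 kb from the mark. The next, on chromosome 1 from 65500001 to 65600000, was the first of 15 windows with 6 such summits.

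The highest-scoring peaks of each bin show the range of sites. They leave out 27 EGFP_OK peaks at places that ranked in the first 20 of another library, 23 of which were inside H3K4me2. All positions are in build mm9, and genes were not assigned because the gene table at hand is of another build. Inside the mark, a peak on chromosome 1 (24617896 to 24623505) held 4613 tags at only 3.63-fold, over an H3K4me2 peak of 4960 bp. Its 822 tags per kb were the most of any EGFP_OK peak, against a median of 40.8, and peaks of every other library overlapped it. Whether it is a site of the tagged protein was not tested. The next, on chromosome 16 (42780841 to 42783213), held 545 tags at 12.33-fold, and the one on chromosome 2 (103509611 to 103511227) held 350 tags at 22.55-fold. Each of these 3 also overlapped an Etv6 peak, and those on chromosomes 1 and 2 a Pax6 peak as well.

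Beside the mark, the leading peak of the 0 to 1 kb bin, on chromosome 12 (38011277 to 38012821), had 253 tags at 21.18-fold with its summit 106 bp from an H3K4me2 peak. Those on chromosome 9 (52177566 to 52178957) and chromosome 8 (82579373 to 82580726) had 190 tags at 14.35-fold and 175 tags at 20.4-fold. They lay 392 and 320 bp from the mark and overlapped no other FLAG peak. At 1 to 5 kb, a peak on chromosome 9 (21754273 to 21755472) reached 24.95-fold with 216 tags at 4.01 kb from the mark and overlapped both Pax6 and Etv6 peaks. Those on chromosome 1 (154871278 to 154872785, 21.88-fold) and chromosome 19 (17212367 to 17213590, 18.04-fold) overlapped neither.

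The highest score of a named peak was 1181 at 5 to 20 kb, in a bin of 6511 peaks, and 871 at 0 to 1 kb, in a bin of 1124. The leading peaks farther out do not rank strength by distance, since the bins differ in size. At 5 to 20 kb they were on chromosome 10 (90171429 to 90173094, 18.46-fold), chromosome 16 (13118522 to 13121050, 14.44-fold) and chromosome 12 (14095153 to 14096559, 22.43-fold), with 318, 497 and 266 tags. The one on chromosome 16 overlapped a Pax6 peak and the others no FLAG peak. At 20 to 100 kb they were on chromosome 10 (88949433 to 88951050, 21.42-fold), chromosome 11 (11780842 to 11782548, 17.87-fold) and chromosome 9 (89021250 to 89022926, 12.89-fold), and none of these overlapped a Pax6 or Etv6 peak. Over 100 kb away, a peak on chromosome 15 (72398479 to 72399681) reached 26.49-fold with 195 tags at 239 kb from the nearest H3K4me2 peak and overlapped both Pax6 and Etv6 peaks. Those on chromosome 3 (78094277 to 78096268) and chromosome 6 (76002300 to 76004023) had 296 and 283 tags at 121 and 336 kb and overlapped neither.

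The most distant summits were at the start of chromosome 14. There 16 EGFP_OK summits lay before the first H3K4me2 peak, which starts at 7721254, and the 3 farthest (at 3085749, 3118944 and 3128377) were 4636, 4602 and 4593 kb from it. They had 63, 58 and 300 tags at 8.43-fold, 3.82-fold and 2.84-fold. The folds of 3.82 and 2.84 were low for the EGFP_OK list, whose median was 7.02 and minimum 2.81. Of all EGFP_OK summits 42 were over 1 Mb from the mark, 13 of them on chromosome 14.

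The shares differed between chromosomes. Inside H3K4me2 lay 38.2% (35.8 to 40.7) of the summits on chromosome 11 and 36.3% (32.7 to 40.0) on chromosome 19, the highest, and 21.2% (19 to 23.6) on chromosome 12, the lowest. Over 20 kb away lay 41.5% (38.7 to 44.3) on chromosome 14 and 21.7% (19.7 to 23.8) on chromosome 11. H3K4me2 peaks covered 6.48% of the span of chromosome 11, 2.95% of chromosome 14 and 2.86% of chromosome 12. Over the 19 chromosomes, which share both libraries, Spearman's rho of the covered share with the inside share was 0.72 and with the share over 20 kb -0.74. Divided by the covered share, the inside share ran from 5.59 times on chromosome 16 to 9.99 times on chromosome 7, so EGFP_OK exceeded the cover on each of the 19.

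**Figure D5:**
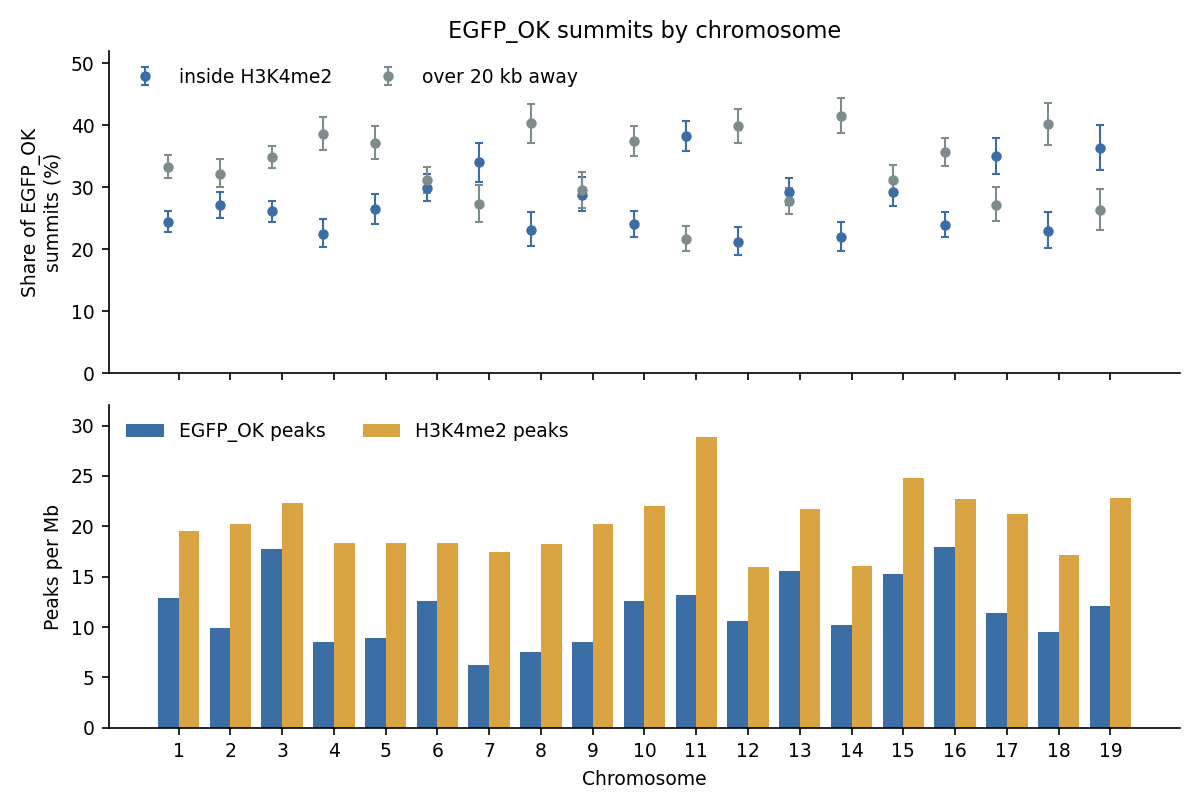
Upper panel: share of EGFP_OK summits (vertical axis, %) inside H3K4me2 (blue) and over 20 kb away (grey) on each chromosome (horizontal axis), with exact 95% binomial intervals. Lower panel: EGFP_OK and H3K4me2 peaks per Mb of the span of the lists. Chromosome 11 has the highest inside share, 38.2%, and chromosome 14 the highest share over 20 kb, 41.5%.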

How the data were processed

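ChIP-seq peak lists of 4 libraries, 1 per group by title, were used. Per the file headers, MACS 1.4.2 called peaks on each library alone, at a p cutoff of 1e-05, with no control file and a band width of 300 bp, taking local background over 10 kb and keeping no more than 1 tag per position. The submitters' processing notes also name CASAVA 1.8.1, BWA 0.6.2 and build mm9, with no roles given. The authors deposited tag counts per peak without normalization, a score of 10 times the −log10 p-value, and the fold enrichment, a ratio to local background. Scores and folds are the authors' own and ranked peaks only within a list. Median folds of the FLAG lists were also set side by side, though these libraries differ in kept tags. Without a control, accessibility and copy number remain in the lists. With 1 tag per position, counts in dense places are limited.

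The EGFP_OK summit was placed at start + summit − 1, and its distance to the nearest H3K4me2 edge was binned with limits of 0, 1, 5, 20 and 100 kb (Python 3.11.15, numpy 2.4.6, pandas 2.3.3, scipy 1.17.1). Circular shifts ran around the span of the 4 lists. They describe the layout of the lists and give no p-value. Neighbouring peaks are not independent. The distance code was checked on simulated positions. Regions named were the 3 highest-scoring per bin, the 3 farthest and the 3 fullest 100 kb windows. The members and lists were chosen with earlier results of these data known. Gene markers were not used here, since the gene table is of another build.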

Additional observations from a re-analysis of the deposited data

Results flagged for a closer look

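EGFP_OK peaks outside chromosomes 1 to 19 were left out of the main comparison, with chromosome X added only as an alternative setting. Both sets below exceeded the 3 peaks that a count of 0 would allow, which is a formal limit and not an expected number. Chromosome X held 608 EGFP_OK peaks and 937 H3K4me2 peaks. Inside H3K4me2 lay 11.7% (9.23 to 14.5) of its summits, and 62.2% lay over 20 kb away, of which 169 summits, or 27.8% of all on that chromosome, lay over 100 kb away. The inside share was below that of every one of chromosomes 1 to 19, where the lowest was 21.2%. It was not divided by the H3K4me2 cover of chromosome X, so this ranking is of raw shares only. With chromosome X added, the ratio of the inside share to its shifts was 6.85, against 6.82 without it. The X peaks had a median of 38 tags and 7.43-fold. Chromosome Y and unplaced sequences held 38 EGFP_OK peaks, of which 11 had the summit inside H3K4me2, or 28.9% (15.4 to 45.9), with a median of 51.5 tags.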

How the results depend on the processing

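The inside share stayed above its shifts and the share over 20 kb below them under every alternative run, with ratios of 4.73 to 7.12 and 0.589 to 0.697 and shares of 18.7 to 30.1% and 32.8 to 43.8%. The main values were 27.3%, 33.3%, 6.82 and 0.592 for the inside share, the share over 20 kb and their ratios. In the same order, EGFP_OK peaks with a score of at least 100 gave 25.1%, 34.2%, 6.29 and 0.609. H3K4me2 peaks with a score of at least 100 gave 23.4%, 42.2%, 7.12 and 0.672, and both limits together 21.1%, 43.8%, 6.46 and 0.697; fewer marked peaks leave longer distances by construction. EGFP_OK peaks of at least 10-fold gave 18.7%, 38.2%, 4.75 and 0.674, and the cause was not tested. Distances from the edge of the EGFP_OK peak gave an inside share of 30.1% and a ratio of 4.73. Distances to the H3K4me2 summit, with up to 1 kb from it counted as inside, gave 25.5%, 34.2% and a ratio of 6.32 for the inside share. Adding chromosome X gave 33.9% over 20 kb. Shifts of 100 kb to 1 Mb gave ratios of 6.15 and 0.661. Joining gaps of up to 1 kb, leaving out recurrent regions, counting the summit 1 base later and shifting the H3K4me2 list moved no value beyond the interval of the main one. No replicate could be left out, since each group held 1 library. No paired analysis was possible because each group held 1 library. Distances rest on the peak caller's threshold in a library of 24550365 kept tags, so a site far from H3K4me2 may lie near marked chromatin that was not called at this depth.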

Other observations

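EGFP_OK peaks per Mb numbered between 6.19 (chromosome 7) and 17.9 (chromosome 16), and H3K4me2 peaks per Mb between 16.0 (chromosome 12) and 28.9 (chromosome 11). Chromosomes with more EGFP_OK peaks per Mb also had more tags per peak. The median was 53 tags on chromosomes 3 and 16, with 17.7 and 17.9 peaks per Mb, against 42 tags on chromosomes 7 and 8, with 6.19 and 7.48 peaks per Mb. Over the 19 chromosomes, which share 1 library, Spearman's rho of density with median tags was 0.93. The median tags of Etv6 peaks ranked much as the EGFP_OK medians did, with a rho of 0.75, and were 60 on chromosomes 3 and 16 and 49 on chromosome 7, so the order was not particular to EGFP_OK. For the median tags of H3K4me2 peaks the rho was 0.22, and they were 118 on chromosome 3, 111 on chromosome 16 and 134 on chromosome 7. The part of copy number or background in these differences was not tested. Chromosome 7 combined the lowest EGFP_OK density with the highest ratio of the inside share to the H3K4me2 cover, 9.99, and chromosome 16 the highest density with the lowest ratio, 5.59.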
